A study of Mus musculus with 2 samples.

Results

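The genes described here encode the proteins of the mitochondrial ribosome, named Mrpl for the large subunit and Mrps for the small one. Members were all rows of the gene tables whose symbol begins with Mrpl or Mrps and a number, without pseudogene names, and that have at least 1 transcript typed protein_coding. This gave 78 of 55536 annotated genes, and all 78 are among the 22015 nuclear protein-coding genes. By the uniform nomenclature, 51 belong to the large subunit and 26 to the small one. That nomenclature places Mrps30 (mL65) and Mrps18a (mL66) with the large subunit, where those proteins sit. Mrps36 bears the family name but encodes a subunit of the 2-oxoglutarate dehydrogenase complex. It is left out of the subunit and class values below but counts among the 78 members in all family values. The members lay on 17 chromosomes, with 11 on chromosome 11 and 8 on chromosome 17.

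Total RNA of adrenal gland from female B6CASTF1/J mice aged 2 months was sequenced after reduction of ribosomal RNA, with ERCC spike-in RNA. B6CASTF1/J is an F1 cross of the C57BL/6J and CAST strains, and values combine both alleles. The labels give 1 group of 2 libraries, biological replicates 1 and 2, each from 300 ng of RNA, with no treatment or second genotype. The labels differ on whether the animals were separate, so the spread between the libraries may be technical. No test between groups could be made.

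Mitochondria keep their own ribosomes, which translate the few proteins of the mitochondrial genome, all of them core subunits of the respiratory chain and ATP synthase. The ribosomal RNAs come from the mitochondrial genome, whereas every ribosomal protein is encoded in the nucleus, made in the cytosol and imported. Some of these proteins have relatives in all ribosomes, some only in bacterial ones, and others are found only in mitochondria. In the adrenal cortex, mitochondria also house the first and last steps of steroid synthesis.

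Annotated genes took 34203664 expected counts in library 1 and 35959484 in library 2, of which 22382970 and 23419203 fell on nuclear genes that code for proteins. The 78 members took 67141 and 68873 counts. Levels are given in TPM, a length-scaled abundance with a fixed sum per library. The 7SL RNA genes took 33.1% of TPM in library 1 and 20.4% in library 2, so TPM is compared between genes, and libraries are compared by scaled counts. Intervals cover counting error only, not differences between animals or library preparations. PCR copies are not independent molecules, so the intervals may be too narrow even for that error. Across genes the libraries differed by more than counting error. Cortex markers were high in both libraries, with Star at 4122 and 4634 TPM and Cyp11a1 at 2492 and 2297 TPM, and markers of medullary chromaffin cells were present, with Th at 209.6 and 184 TPM.

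Adrenal tissue expressed the whole family, at similar moderate levels. All members had counts in both libraries, 77 of 78 reached 1 TPM in both and 73 of 78 reached 10 TPM in both. The exception at 1 TPM was Mrpl23, whose reads are discussed with its pseudogene below. By mean level, 69 members lay between 10 and 60 TPM, 6 at or above 60 TPM and 3 below 10 TPM. The median member stood at percentile 88.0 among nuclear protein-coding genes, with 72 of 78 in the top 25% and 32 in the top 10%. Of the TPM that fell on nuclear protein-coding genes the members together took 0.715% in library 1 and 0.698% in library 2, a mean of 0.706% ± 0.0117 (SD, n = 2). Of the counts on those genes they took 0.3% and 0.294%.

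Large and small subunit genes had nearly the same median level. The median over the 51 large subunit genes was 24.8 TPM in library 1 and 27.5 in library 2, and over the 26 small subunit genes 26.0 and 25.3 TPM. Over both libraries this gave 26.1 ± 1.89 TPM for the large and 25.7 ± 0.516 TPM for the small subunit (SD, n = 2). The 2 medians thus differed by less than the spread between libraries. Summed over genes, the large subunit reached 1460 and 1587 TPM and the small subunit 773 and 854 TPM.

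Among the 16 large subunit genes with relatives in all ribosomes the median was 26.5 ± 2.28 TPM. The 14 with bacterial relatives only stood at 25.7 ± 1.87 TPM and the 21 found in mitochondria only at 31.4 ± 2.33 TPM. In the small subunit the medians were 27.8 ± 1.94 TPM for 11 universal, 27.6 ± 3.24 TPM for 5 bacterial and 21.6 ± 1.3 TPM for 10 mitochondrial members. The mitochondria-only proteins were highest by median in the large subunit and lowest in the small one. Pooled over subunits the 3 classes had medians of 27.5, 25.9 and 23.7 TPM, each with genes across most of the family's range.

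**Figure D1:**
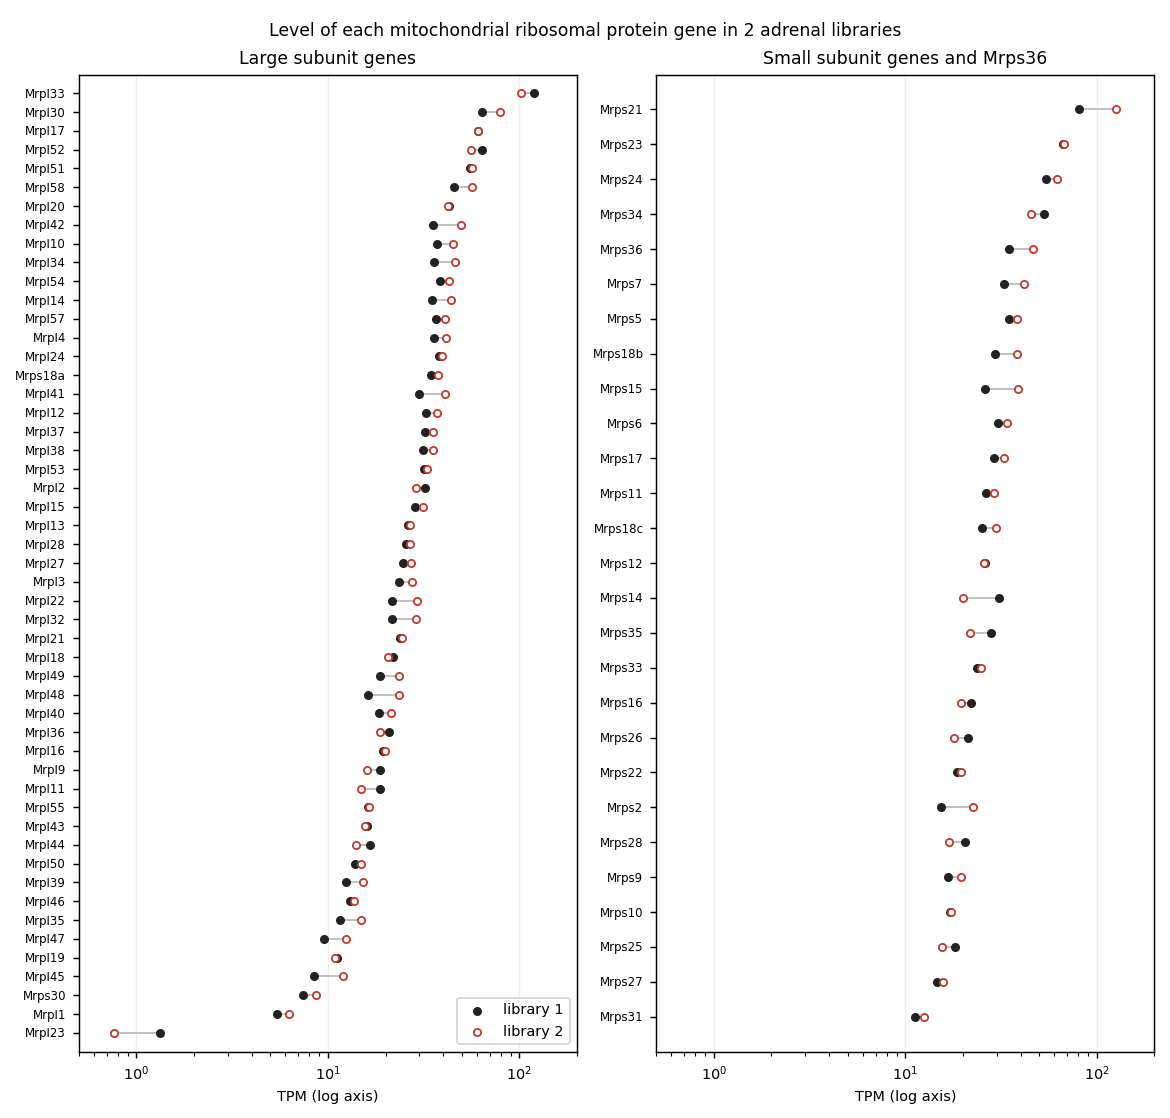
TPM of each member (log axis) in library 1 (filled) and library 2 (open), with a line joining the 2 values, for the 51 large subunit genes (left) and the 26 small subunit genes with Mrps36 (right). Mrpl33 and Mrps21 lie highest and Mrpl23 lies apart at the bottom.

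Mrpl33 (bL33m), a small large subunit protein with a bacterial relative, was the most abundant member by mean TPM, at 119.8 TPM in library 1 and 102 in library 2. Its gene (ENSMUSG00000106918.3) spans chromosome 5, 31596935 to 31664384, plus strand, on mm10, as all coordinates of genes here. It was followed in the large subunit by Mrpl30 (uL30m) at 63.8 and 79.2 TPM and Mrpl17 (bL17m) at 60.9 and 61.1 TPM. Mrpl52 and Mrpl51, both found only in mitochondria, stood at 64.1 and 56.1 TPM and at 55.1 and 56.2 TPM. Mrpl58, known in human as ICT1 and able to free peptides from stalled mitochondrial ribosomes, had 45.7 and 56.4 TPM. Next came Mrpl20 (42.6 ± 0.495 TPM), Mrpl42 (42.5 ± 10.2 TPM), Mrpl10 (41.2 ± 5.65 TPM) and Mrpl34 (41 ± 7.27 TPM), whose means differed by less than the SD of the last 3.

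Near the bottom of the large subunit, 13.3 ± 0.417 TPM was measured for Mrpl46 and 13.8 ± 2.02 TPM for Mrpl39, a protein related to threonyl-tRNA synthetase. Mrpl35 (13.2 ± 2.38 TPM), Mrpl47 (11 ± 2.11 TPM), Mrpl19 (11 ± 0.212 TPM) and Mrpl50 (14.3 ± 0.778 TPM) were close to them. Mrpl45, which in mammals ties the ribosome to the inner membrane, stood at 8.49 TPM in library 1 and 12 in library 2. Mrps30 had 7.38 and 8.68 TPM and Mrpl1, the protein of the mobile L1 stalk, 5.44 and 6.3 TPM. By mean TPM these last 3 were the lowest members apart from Mrpl23, although each had 475 or more counts in both libraries.

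The proteins around the peptidyl transferase centre and the core of the large subunit lay in the middle of the range. Mrpl3 (uL3m) had 23.5 and 27.5 TPM and Mrpl2 (uL2m) 32 and 28.8 TPM, and both are near the catalytic centre in bacteria. Mrpl4 had 35.8 and 41.6 TPM, Mrpl13 26.3 and 26.8 TPM, Mrpl14 35 and 43.8 TPM, Mrpl15 28.6 and 31.4 TPM, Mrpl16 19.3 and 19.8 TPM and Mrpl18 21.8 and 20.7 TPM. Of these universal proteins Mrpl14 and Mrpl4 were highest in library 2. Among those with bacterial relatives, Mrpl27, whose bacterial relative reaches into the catalytic centre, had 24.8 and 27.1 TPM. Mrpl21 had 23.9 and 24.3 TPM, Mrpl28 25.4 and 27 TPM, Mrpl32 21.5 and 28.9 TPM, Mrpl36 20.8 and 18.8 TPM, Mrpl9 18.8 and 16.1 TPM and Mrpl55 16.2 and 16.5 TPM. The mitochondria-only proteins of the middle range were Mrpl37 (33.8 ± 2.42 TPM), Mrpl38 (33.4 ± 3.02 TPM), Mrpl40 (19.9 ± 1.91 TPM), Mrpl41 (35.4 ± 7.95 TPM), Mrpl43 (15.8 ± 0.205 TPM), Mrpl48 (19.9 ± 5.11 TPM), Mrpl49 (21 ± 3.39 TPM), Mrpl53 (32.5 ± 0.827 TPM), Mrpl54 (40.7 ± 2.86 TPM) and Mrpl57 (38.8 ± 3.02 TPM). Their means ran from 15.8 to 40.7 TPM.

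In the small subunit Mrps21 (bS21m) was highest, at 80.5 TPM in library 1 and 126 in library 2 (ENSMUSG00000054312.6; chromosome 3, 95862634 to 95871519, minus strand), the widest gap in TPM between the libraries in the family. Mrps23 followed at 66.8 and 67.4 TPM and Mrps24 (uS3m) at 54.2 and 61.8 TPM. Mrps34, needed in mice for a stable small subunit, had 53.3 and 45.2 TPM. Mrps7 (37.4 ± 6.48 TPM), Mrps5 (36.6 ± 2.45 TPM), Mrps18b (34 ± 6.24 TPM), Mrps15 (32.4 ± 8.99 TPM), Mrps6 (32.3 ± 2.67 TPM) and Mrps17 (30.9 ± 2.55 TPM) completed the upper 10. The lower end was less deep than in the large subunit. The lowest were Mrps31 at 11.2 and 12.5 TPM, Mrps27, a pentatricopeptide repeat protein, at 14.6 and 15.8 TPM and Mrps25 at 18.2 and 15.6 TPM. Mrps10 (17.2 ± 0.184 TPM), Mrps9 (18 ± 1.99 TPM), Mrps28 (18.6 ± 2.56 TPM), Mrps2 (18.9 ± 5.17 TPM), Mrps22 (19.2 ± 0.622 TPM), Mrps26 (19.6 ± 2.32 TPM) and Mrps16 (20.8 ± 1.75 TPM) lay between them and the middle of the family.

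The middle of the small subunit held Mrps12 (uS12m), whose bacterial relative monitors decoding, at 26 and 25.9 TPM, and Mrps11 (uS11m) at 26.5 and 29.2 TPM. Mrps14 had 30.9 and 20.1 TPM, Mrps33 23.8 and 24.7 TPM and Mrps35 27.9 and 21.8 TPM. Mrps14 and Mrps35 had lower TPM in library 2. For Mrps35 the counts went the other way, at 752 and 797. TPM and scaled counts differed in direction, in either sense, in 17 of the 77 members at 100 counts or more. Mrps18a, for example, had higher TPM but lower scaled counts in library 2. The same count over all genes was not made.

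Mrps36 was measured at 34.9 and 46.2 TPM, within the range of the ribosomal members.

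The 3 genes of the Mrps18 trio encode related versions of one bacterial protein, and each mitochondrial ribosome holds all 3 at different sites. Mrps18a, whose protein lies in the large subunit, had 34.7 and 37.5 TPM. Mrps18b (mS40) had 29.6 and 38.4 TPM and Mrps18c (bS18m), the one closest in place to the bacterial protein, 25.3 and 29.8 TPM. Their order was a, b, c in library 1, and b led a in library 2.

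The stalk that recruits translation factors is built from Mrpl12 on Mrpl10 with Mrpl11 at its base. Mrpl12, which is present in several copies per ribosome in related systems, had 32.4 and 37 TPM. Mrpl10 had 37.2 and 45.2 TPM and Mrpl11 18.8 and 15 TPM. Mrpl11 was thus the lowest of the 3 in both libraries, and the gap to the other two was wider than the spread of each. Around the exit of the peptide tunnel, Mrpl24 had 37.8 and 39.4 TPM, Mrpl22 21.6 and 29.1 TPM, Mrpl44 16.6 and 14.1 TPM, Mrpl39 12.4 and 15.2 TPM, Mrpl47 9.51 and 12.5 TPM and Mrpl45 8.49 and 12 TPM. Mrpl24 and Mrpl22 were above the remaining 4 in both libraries.

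The level of a member went with the length of its transcripts. Across the 78 members, log2 mean TPM and log2 length had a Pearson r of -0.67 and a Spearman rho of -0.68. The same correlation in the second deposited quantification was -0.75 and -0.68. By counts, in contrast, there was almost no relation to length, with r = 0.04. Counts spanned a narrower range, from 401 to 2248 per member as the mean of the libraries once Mrpl23 is left out, a 5.61-fold range, against 18.9-fold for TPM. These correlations are across genes of the same 2 libraries, length enters TPM by division, and genes are not independent replicates.

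**Figure D2:**
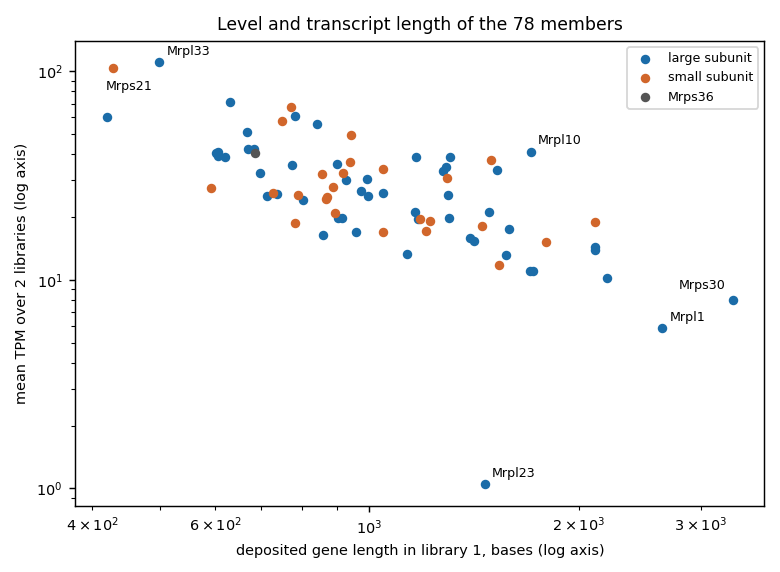
Mean TPM of the 78 members against the deposited gene length in library 1 (both log axes), coloured by subunit. Members with short transcripts such as Mrpl33 and Mrps21 lie at the top left and long ones such as Mrps30 and Mrpl1 at the bottom right, with Mrpl23 below the rest.

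The family was lower than the genes of the cytosolic ribosome or of the respiratory chain, and more even over the gene lists used. Its central range, from the 10th to the 90th percentile, was 13.3 to 52.4 TPM, a 3.94-fold span. The 82 genes of cytosolic ribosomal proteins had a median of 239 ± 15.6 TPM and an 8.22-fold span. The 76 nuclear genes of the respiratory chain and ATP synthase had a median of 127 ± 3.57 TPM and a 5.69-fold span. Set against these, the members' median was 26.5 ± 1.08 TPM. Both comparison lists were set by symbol and include genes at 0 TPM. At 1 TPM or more in both libraries were 79 of 82 cytosolic and 74 of 76 respiratory chain genes. How far the other genes widened the spans was not tested. The 5 mitochondrial ribosomal proteins whose symbols fall outside the family name stood in the same range as the members. They were Dap3 at 40.5 and 44.8 TPM, Ptcd3 at 26.7 and 33.6 TPM, Aurkaip1 at 48 and 53.8 TPM, Chchd1 at 26.1 and 23.1 TPM and Gadd45gip1 at 21.1 and 26 TPM.

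Genes that serve the mitochondrial ribosome were mostly lower than its proteins. The median was 9.97 ± 0.304 TPM over 12 translation factors, with the elongation factor Tufm highest at 70.6 and 75.2 TPM. It was 7.75 ± 0.983 TPM over 21 assembly factors, led by Mpv17l2 at 39.2 and 37.3 TPM and the RNA helicase Dhx30 at 35.2 and 32.1 TPM. For 17 mitochondrial aminoacyl-tRNA synthetases it was 9.04 ± 0.643 TPM. In both libraries these medians were below that of the members.

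Between the libraries the family as a whole differed little under the main scaling, and the sign of its median depended on the scaling. Ratios were taken for the 77 members at a mean of 100 counts or more, after scaling by the trimmed mean of M-values. The median log2 ratio of library 2 over library 1 was 0.029, against -0.016 over 11525 nuclear protein-coding genes at the same minimum. With scaling to nuclear protein-coding counts the members' median was -0.020, and with spike-in scaling it was 0.23, where all these genes had 0.19. Under the main scaling 43 members were higher and 34 lower in library 2, where 5428 of the 11525 genes were higher and 6097 lower. This split was not tested. The SD of the members' log2 ratios was 0.22, against 0.33 over all these genes and 0.29 over 5886 genes in the members' own range of counts. A log2 ratio of a single member carried a counting error of 0.0852 to 0.204 at 95%. Thus 33 of 77 members had an interval that left out equality, 42.9%, where 53.8% of all genes did. Over 1.2-fold higher in library 2 were 8 members (10.4%, background 11.6%), and over 1.2-fold lower were 10 (13%, background 16.3%). With spike-in scaling, which shifted all genes up, 32 members were over 1.2-fold higher (41.6%, background 37.2%), 1 was over 1.2-fold lower (1.30%, background 5.15%) and 54 intervals left out equality (70.1%, background 64.5%). With scaling to nuclear protein-coding counts 5 were over 1.2-fold higher (6.49%, background 8.51%). At this scaling 14 were over 1.2-fold lower, for which no background share is given, so that count is no result about the members. Under the trimmed mean scaling the shares over 1.2-fold and of intervals without equality were near or below the background. These counts are therefore no result about the members. With 2 libraries of 1 group no p-value is given.

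**Figure D3:**
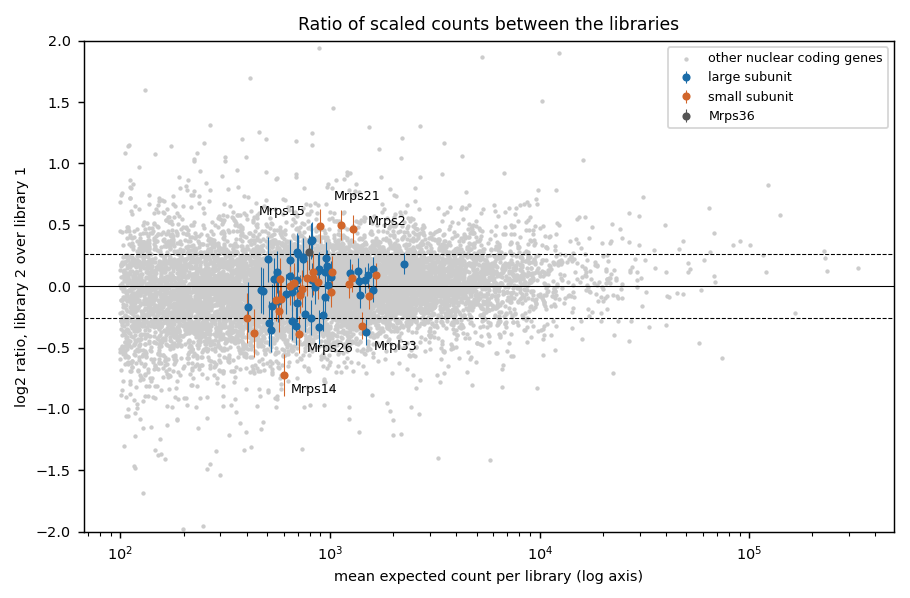
Log2 ratio of scaled counts, library 2 over library 1, against the mean expected count (log axis). Coloured points are the 77 members with 95% counting intervals, grey points the other 11448 nuclear protein-coding genes, of which 8 lie beyond the plotted range, and dashed lines mark 1.2-fold. Members lie within the cloud, with Mrps14 lowest and Mrps21, Mrps15 and Mrps2 highest.

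Of the 10 members that lay farthest apart, 5 in each direction, 6 belong to the small subunit and 4 to the large one. Ratios were taken for 26 small and 50 large subunit genes. Whether the split of the 10 departs from these numbers was not tested, so it is no result about the subunits. Mrps21, with 928 and 1326 counts, was 1.41-fold higher in library 2 (95% counting interval 1.3 to 1.54). For Mrps15 (uS15m), 744 and 1057 counts gave a level 1.41-fold higher in library 2 (95% counting interval 1.28 to 1.55). The 1076 and 1502 counts of Mrps2 (uS2m) made it 1.38-fold higher in library 2 (95% counting interval 1.28 to 1.49). In the large subunit, Mrpl42 with 705 and 927 counts was 1.3-fold higher in library 2 (95% counting interval 1.18 to 1.44) and Mrpl41 with 703 and 917 counts was 1.29-fold higher in library 2 (95% counting interval 1.17 to 1.43). The other members over 1.2-fold higher were Mrpl45, Mrps36 and Mrpl34.

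On the other side Mrps14 (uS14m; ENSMUSG00000058267.13; chromosome 1, 160195215 to 160202170, plus strand) stood apart. Its 748 and 457 counts made it 1.65-fold lower in library 2 (95% counting interval 1.47 to 1.86), the largest ratio in the family. Mrps26, with 804 and 619 counts, was 1.31-fold lower in library 2 (95% counting interval 1.18 to 1.46). For Mrps28 (bS1m), 489 and 380 counts were measured, 1.3-fold lower in library 2 (95% counting interval 1.14 to 1.49). For Mrpl33, the most abundant member by mean, 1674 and 1306 counts gave a level 1.3-fold lower in library 2 (95% counting interval 1.2 to 1.39). The 582 and 460 counts of Mrpl36 made it 1.28-fold lower in library 2 (95% counting interval 1.13 to 1.45). The second quantification gave Mrps14 797 and 479.8 estimated counts and Mrps21 573 and 758. Across the 77 members the sign of the ratio was the same in both quantifications for 66.

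The libraries also differed in the RNA of other cell types, and what part that had in these ratios was not tested. In whole tissue, fewer cells of a type and less RNA per cell cannot be told apart. All 6 brown adipocyte markers were higher in library 2, summing to 0.0809% of nuclear protein-coding counts in library 1 and 0.151% in library 2. All 6 chromaffin markers were lower there, with sums of 0.60% and 0.441%. The 4 liver markers summed to 0.0466% and 0.0270% of these counts. The 4 kidney markers summed to 0.00427% and 0.000269%, with Kap, Slc34a1 and Umod at 0 in library 2. Of 5 erythroid markers 4 were higher in library 2, with sums of 0.0961% and 0.148%. Cytosolic ribosomal protein genes had a median log2 ratio of -0.17, with 54 of 79 lower in library 2, and nuclear respiratory chain genes one of 0.00. Ppargc1a, a coactivator of mitochondrial gene programs that is also a brown adipocyte marker, was 4.52-fold higher (interval 3.92 to 5.25) in library 2, at 227 and 1039 counts. For the NRF1, ETS and YY1 motifs searched below, Nrf1 was 1.04-fold lower (interval 0.915 to 1.19) and Yy1 1.04-fold higher (interval 0.987 to 1.09). Gabpa was 1.24-fold higher (interval 1.15 to 1.33), whereas Gabpb1, from the same list of regulators, was 1.22-fold lower (interval 1.09 to 1.38).

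The mRNAs of the mitochondrial genome differed more between the libraries than the ribosomal protein genes did. The 2 mitochondrial ribosomal RNAs kept their share, at 11.3% of counts in both libraries, although the libraries were reduced for ribosomal RNA. The mitochondrial mRNAs took 5.41% of counts in library 1 and 8.84% in library 2. Of 13 mRNA genes 11 were higher in library 2, with log2 ratios from 0.18 to 1.15 and a median over all 13 of 0.73. The exceptions were mt-Nd6 at -0.08 and mt-Co2 at -2.32. The ribosomal RNAs had log2 ratios of 0.05 for mt-Rnr1 and 0.06 for mt-Rnr2, and the members a median of 0.029. Nuclear coding genes as a whole had a median of -0.016 under the same scaling, which draws most genes towards equality. The nearness of the members to the ribosomal RNAs therefore says nothing about the family.

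Mrpl23 (uL23m), a protein at the exit of the peptide tunnel, was the lowest member in the gene tables but not in the second quantification. In the former it had 63.4 and 44.4 counts (1.33 and 0.76 TPM), while its processed pseudogene Mrpl23-ps1 had 553 and 576. In the second deposited quantification Mrpl23 had 693 and 679 estimated counts, and the pseudogene 0 in both libraries. The gene (ENSMUSG00000037772.13) spans chromosome 7, 142532686 to 142540747, plus strand, and the pseudogene chromosome 2, 74591330 to 74591909, minus strand, on mm10. Transcript Mrpl23-201 is 692 bases long and spliced from 5 exons. The pseudogene transcript is 580 bases long, and 540 bases of it, 93.1%, stand in Mrpl23-201 without a mismatch. The first 90 coding bases are shown because they are the same in both, with the start codon in capitals, from the GENCODE M21 transcript of the plus strand gene on chromosome 7:
Mrpl23 and Mrpl23-ps1: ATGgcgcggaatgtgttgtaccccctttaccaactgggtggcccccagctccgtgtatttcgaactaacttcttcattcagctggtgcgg

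The 2 quantifications thus placed these reads at different loci. Summed over both loci the gene tables had 616 and 620 counts, near the 693 and 679 of the second quantification. By the second quantification Mrpl23 stood at 0.0113% and 0.011% of nuclear coding TPM, inside the range of the other members. The deposited posterior SD of the Mrpl23 count was 22.9 in library 1 and 26.5 in library 2.

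**Figure D4:**
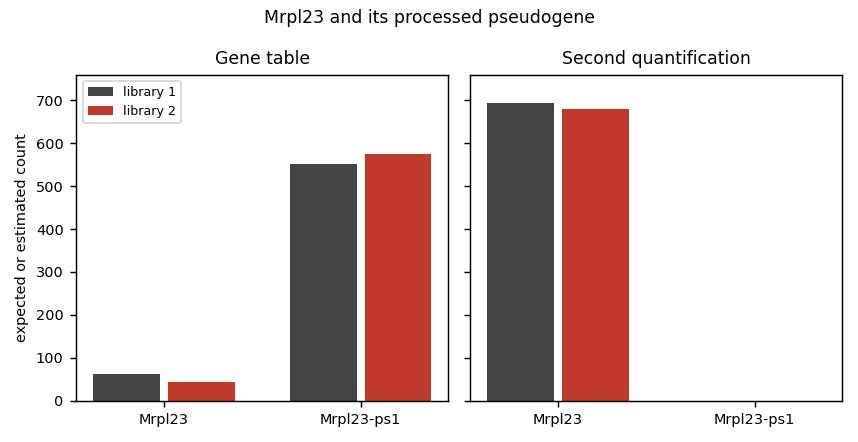
Expected counts of the gene table (left) and estimated counts of the second quantification (right) for Mrpl23 and Mrpl23-ps1, in library 1 (dark) and library 2 (red). The gene holds 63.4 and 44.4 counts in the first and 693 and 679 in the second, and the pseudogene shows the reverse order.

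Other members shared sequence with other loci as well. Over 31-base words of the leading transcript, 51 of 78 members shared under 5% with any other gene, and 38 shared none. At 5% or more were 27 members, and for 22 of these the nearest match was a processed pseudogene. Mrps33 shared 24.1% of its words, and the pseudogene Gm5776 had 59.3 and 40.7 counts. Mrps10 shared 31.8%, and the pseudogene AC154457.3 had 55.7 and 79.7 counts, with 58.2 and 48.5 in the second quantification. Mrps5 shared 14.2%, and the pseudogene Gm13328 had 85.8 and 70.9 counts, with 0 and 6.78 in the second quantification. Mrpl48 shared 23.1%, and Mrpl48-ps had 87.3 and 71.1 counts against 685 and 809 counts for the gene. All words of Mrpl53 also stand in Gm42688, an overlapping gene model on the same strand with 172 and 160.1 counts. Mrpl53 itself had 665 and 651 counts. In the second quantification Gm42688 had 493 and 446 estimated counts and Mrpl53 505 and 501. On the same strand as a gene of 100 or more counts lay the exons of 4 members. These were Mrps24 with Urgcp, Mrps34 with Nme3, Mrps6 with Slc5a3 and Mrpl53 with Gm42688. The posterior SD deposited with the gene counts was at most 0.70% of the count for these 4. It is the error of assigning reads between loci within that quantification, so it leaves out the different split for Mrpl53 in the second. For Mrpl23 this SD was 36.1% and 59.6% of the count. The leading transcripts of Mrps24 and Mrps34 held no shared word. On opposite strands 28 members overlapped another gene's exons, among them Mrpl46 and Mrps11, which overlap each other over 173 bases.

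Across the family both quantifications gave much the same levels. The log2 mean share of nuclear coding TPM had a Pearson r of 0.74 between them over 78 members and 0.93 over the 77 without Mrpl23. A shift of over 1.5-fold was found for 7 members. Apart from Mrpl23, the second quantification was higher for Mrpl27 (0.00781 and 0.00759 against 0.0161 and 0.0152 of nuclear coding TPM, in percent), Mrps33, Mrpl35 and Mrpl3. It was lower for Mrpl49 and for Mrpl17, the latter at 0.0192 and 0.0172 against 0.00946 and 0.00871 percent. Between libraries, log2 TPM of the members had r = 0.96 and rho = 0.95 over 78 genes.

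A larger share of the members' RNA than of all nuclear coding genes' RNA was assigned to transcripts not typed as coding. In the gene table's transcript source, transcripts typed protein_coding took 76.2% of the members' TPM in library 1 and 73.9% in library 2. Over nuclear protein-coding genes it was 85.5% and 83.3%. Of the members' TPM, retained_intron transcripts took 9.87% and 11.0%, processed_transcript 8.14% and 9.96% and nonsense_mediated_decay 5.75% and 5.14%. In 17 of 78 members under 50% of TPM was coding by the mean of the libraries. Among the 77 at 100 counts this was 16, or 20.8%, against 8.12% of 11525 nuclear coding genes. The median member nevertheless had 92.0%. At 100 counts or more the median was 92.4% for members and 91.3% over nuclear coding genes, so the typical member was not lower.

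The lowest shares were found in 5 members. Mrps26 had 3.86% and 2.67% of its TPM in coding transcripts, Mrpl51 3.16% and 4.59% and Mrpl57 4.31% and 3.44%. For Mrps16 the shares were 5.13% and 7.21% and for Mrps14 8.34% and 6.71%. In the second quantification Mrps26 (3.68% and 2.65%), Mrpl51 (4.59% and 4.05%), Mrpl57 (2.03% and 1.56%) and Mrps16 (0.532% and 0.724%) were as low. Mrps14 was not, at 100% and 100%. Over all members, 14 were under 50% in both quantifications.

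For 16 members the leading transcript was not typed protein_coding, and for 13 of these the same held in the second quantification. Among the members at 100 counts or more this was 19.5%, against 6.87% of 11525 nuclear coding genes. By position, a median of 89.2% of the bases of these 16 transcripts lay in the exons of a coding transcript of the same gene, untranslated parts included. The range was 17.7% to 100%, with 7 of 16 at 90% or more, and 15 of the 16 were shorter than that coding transcript. Mrps26-201, a retained_intron transcript of 1057 bases at 20.4 and 17.5 TPM, had 92.4% of its bases in Mrps26-202, a coding transcript of 4278 bases at 0.82 and 0.48 TPM. Mrpl32-201 (658 bases, nonsense_mediated_decay) lay wholly in the exons of Mrpl32-202 (3013 bases). Mrpl57-202 (519 bases, retained_intron) had 84.8% in Mrpl57-201 (2877 bases). Mrps16-202 had 62.2%, Mrpl51-202 57.4% and Mrpl23-203 17.7%. Reads in the shared exons could not be placed by sequence alone.

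**Figure D5:**
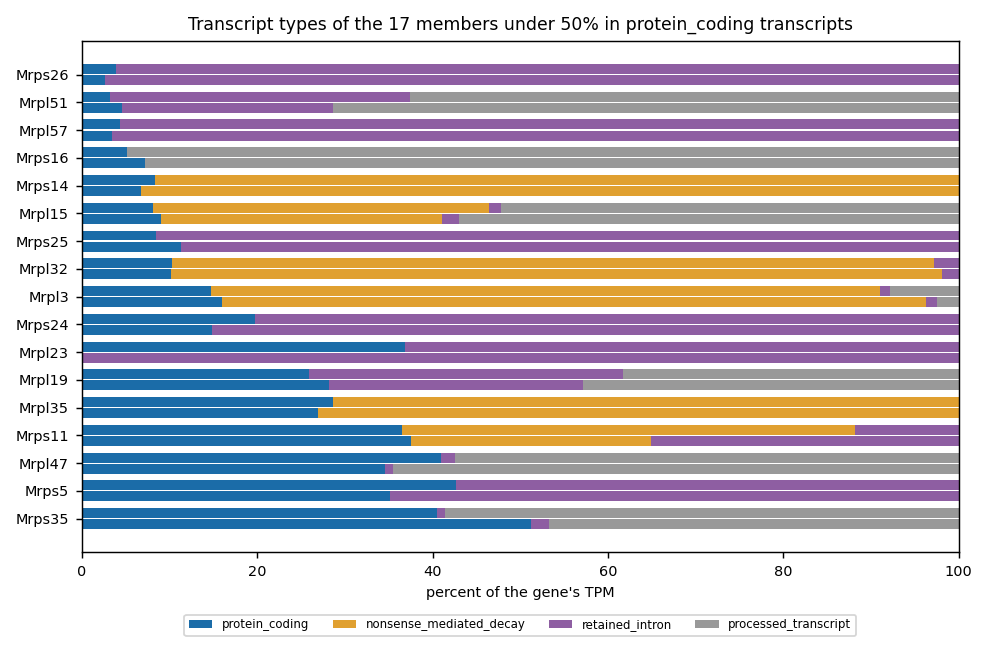
Percent of the gene's TPM by transcript type for the 17 members under 50% in protein_coding transcripts, library 1 above library 2 for each gene. Mrps26, Mrpl57, Mrps25 and Mrps24 are mostly retained_intron, Mrps14, Mrpl32, Mrpl3 and Mrpl35 mostly nonsense_mediated_decay, and Mrps16 processed_transcript.

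The leading transcript's share differed by 10 points or more between the libraries in 18 of 78 members. The same count was not made over all nuclear coding genes, so it is no result about the family. The widest differences were in Mrpl23 (22.0% and 61.2%), whose counts were few, and Mrpl14, where Mrpl14-201 took 70.4% in library 1 and 35.3% in library 2. Mrps18c-201 took 81.3% and 52.7%, Mrpl55-201 52.2% and 25%, and Mrpl36-201 90.3% and 65.5%. In the second quantification Mrpl14-201 took 59.2% and 28.4% and Mrps18c-201 92.0% and 51.2%, whereas Mrpl55-201 (22.8% and 18.4%) and Mrpl36-201 (47.3% and 38.0%) differed less. The same transcript led in both quantifications for 54 of 78 members.

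Many members had a close neighbour on the opposite strand that starts nearby and runs the other way. This held for 18 of 78 members (23.1%) within 1000 bases, against 6.75% of 22015 nuclear coding genes and 10.1% of those at 1 TPM or more. The median distance between starts was 82 bases, and 11 of the 18 pairs were within 100 bases. In 15 pairs the member was above its neighbour in both libraries. Counts by distance and by level were not made over all nuclear coding genes with such a neighbour. They are therefore no result about these pairs. Mrps34 and Eme2 start 29 bases apart, at 53.3 and 45.2 TPM against 12.2 and 13.8 TPM. Mrpl30 and Mitd1 start 66 bases apart, at 63.8 and 79.2 TPM against 3.91 and 2.92 TPM. The reverse was seen for Mrpl49, 59 bases from Fau, a cytosolic ribosomal protein gene at 361 and 426 TPM, and for Mrpl32 beside the proteasome gene Psma2. Mrpl54 and Apba3 start only 26 bases apart.

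Promoters of the members held motifs of 3 factors often linked to mitochondrial genes. RefSeq promoters on GRCm38.p6, from 250 bases before to 50 bases after the start, were found for 69 of 78 members, 75 promoters in all. On either strand, CCGGAAG, the ETS letters bound by GABPA, was in 26 (34.7%), against 8.86% of all 32851 promoters. GCGCATGC, part of an NRF1 site, was in 8 (10.7%) against 2.71%, and AAGATGGCG, a YY1 motif, in 8 (10.7%) against 1.40%. The SP1 letters GGGCGG were in 39 (52.0%) against 35.7%, and TATAAA in 5 (6.67%) against 13.6%. This background was not limited to genes expressed here, so it does not show how far the members differ from other expressed genes. Each promoter was counted, and 3 members had 2 or more. Among these, the promoters of Mrpl2 overlap and all hold the SP1 letters. The ETS and YY1 letters can overlap by AAG. None of the first 3 motifs was in any promoter of 33 matched members, which says nothing about binding there, and a match is a description of letters only.

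The 4 promoters below are shown because they hold 2 of the 3 motifs in the 150 bases around the start that end 25 bases after it. All are on the plus strand of GRCm38.p6, from RefSeq, with the NRF1, ETS and YY1 letters in capitals. Their spans are chr11:58171539-58171688, chr5:31613826-31613975, chr17:46110879-46111028 and chr13:99344661-99344810, in the order printed:
Mrpl22: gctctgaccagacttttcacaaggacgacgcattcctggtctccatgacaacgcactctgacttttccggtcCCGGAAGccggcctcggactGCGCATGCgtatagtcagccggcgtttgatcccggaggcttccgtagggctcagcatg
Mrpl33: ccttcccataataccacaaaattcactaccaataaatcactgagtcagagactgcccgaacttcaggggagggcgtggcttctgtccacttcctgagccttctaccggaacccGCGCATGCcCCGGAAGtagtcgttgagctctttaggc
Mrps18a: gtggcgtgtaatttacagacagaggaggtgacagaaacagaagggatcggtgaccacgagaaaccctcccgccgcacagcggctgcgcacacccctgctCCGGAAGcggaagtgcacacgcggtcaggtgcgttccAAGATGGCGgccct
Mrps27: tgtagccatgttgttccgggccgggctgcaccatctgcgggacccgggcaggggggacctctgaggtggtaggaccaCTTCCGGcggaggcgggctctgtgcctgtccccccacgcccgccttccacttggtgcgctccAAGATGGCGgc

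Mrpl22 and Mrpl33 pair NRF1 with ETS letters, and in Mrpl33 they are 1 base apart beside the start. Mrps18a and Mrps27 pair ETS letters before the start with a YY1 motif just after it. The levels of these 4 genes, 25.3 ± 5.31 TPM, 111 ± 12.6 TPM, 36.1 ± 2.02 TPM and 15.2 ± 0.877 TPM, ran from the lower part of the family to its top.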

How the data were processed

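RNA of 2 libraries was measured by total RNA-seq. Per the file headers, the columns of the gene table and its transcript table are those of RSEM, and those of the second transcript table are kallisto's. The deposited text on the files names mm10 and GENCODE M21. The aligner, program versions and settings, strand settings included, are not given in the sources used here. Values deposited by the authors are expected counts (estimated, not always whole), TPM and each transcript's percent of its gene's TPM.

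The members and lists were chosen with earlier results of these data known. Rows that name no gene and spike-ins, 0.909% and 0.76% of counts, stayed out. Scaling factors used expected counts rounded to whole numbers (edgeR 4.0.16; DESeq2 1.42.0 as an alternative, R 4.3.3), as did intervals. Log2 ratios used TMM and a prior count of 0.5, and 95% intervals were exact Clopper-Pearson. The ratio step was tested on simulated data. The libraries differed by more than counting noise (chi-square per degree of freedom 77.3 over 17308 genes), so counting intervals understate the spread between them. Neither library was dropped. Named members are the 10 highest and lowest per subunit, the 5 most extreme by ratio, quantification, coding share and leading transcript, the Mrps18 trio, stalk, tunnel exit and genes with counted pseudogenes; others were chosen after their values were seen. Alternatives were other scalings, count minimums, a prior count of 5, TPM ratios, the second quantification and leaving out each library.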

Additional observations from a re-analysis of the deposited data

Results flagged for a closer look

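Counts were found in rows of pseudogenes that are named after members and stay outside the family. Mrpl23-ps1 had a mean of 564 expected counts, more than Mrpl23 itself, and the second quantification had 0 there. Mrpl48-ps had a mean of 79.2, against 0 and 1.77 estimated counts in the second quantification. Mrps36-ps2 had a mean of 4.43, against 0 in both. Mrps36-ps1 and Mrps36-ps3 had none. Whether any of these loci is transcribed was not tested.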

How the results depend on the processing

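The direction of the difference between the libraries followed the scaling. The members' median log2 ratio was 0.029 as reported, 0.045 with DESeq2 size factors, 0.23 with spike-in scaling, -0.020 with scaling to nuclear protein-coding counts, -0.055 in the second quantification and 0.14 as a ratio of deposited TPM. Spike-in scaling moved the median of all nuclear coding genes to 0.19, and the deposited TPM moved it to 0.11. The balance of members over 1.2-fold turned from 8 higher and 10 lower to 32 higher (all genes 37.2%) and 1 lower (5.15%) with spike-in scaling, where 54 intervals left out equality (64.5%). Scaling to nuclear protein-coding counts gave 5 members over 1.2-fold higher (8.51%) and 14 over 1.2-fold lower, the latter without a share over all genes.

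The second quantification gave the members 0.731% of nuclear coding TPM and 0.273% of counts, medians of 49.1 TPM for the large and 43.8 TPM for the small subunit, and 69.2% of TPM in coding transcripts. Nuclear coding genes held 60.9% and 58.1% of TPM there, against 31.7% and 35.6% in the gene tables. With all rows as denominator the members took 0.238% of TPM. By expected counts 81.7% was in coding transcripts. The order of the subunit medians turned between single libraries, from 24.8 TPM for the large under 26.0 for the small in library 1 to 27.5 over 25.3 in library 2. Of 44 alternative values 16 moved beyond the SD or counting interval, or beyond 1.5 times the count, and 28 did not. Of these 28, 10 leave out 1 of the 2 libraries and lie within the SD by construction, so they say nothing about stability. The ratios need both libraries. With n = 2 and 1 group, precision is limited by the number of libraries. A member's counting error was 0.144 at the median on the log2 scale, so differences below it were not detectable at this depth. No paired analysis was possible because there is only 1 group.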
